A study of Mus musculus with 6 samples.

Results

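Expression of 35 germline and meiosis genes was examined in mouse epiblast-like cells (EpiLCs) with and without the signal transducers Smad2 and Smad3. The genes were taken by symbol from a list that had been put together as germline genes kept silent by promoter methylation, with 1 entry per symbol, the one with the most reads. All 35 were present among the 24288 symbols in the expression data, and all 35 were among the 17038 genes that had enough reads to be tested. RNA was sequenced from day 2 EpiLCs, which are embryonic stem cells (ESCs) moved from the naive state (2i and LIF) into medium with activin A, Fgf2 and serum replacement, where they come to resemble the epiblast just after implantation. The wild-type group (WT, n = 3) came from the CCE line of strain 129/Sv//Ev. The Smad2/3 double knockout group (DKO, n = 3) came from a single clone of the same strain, KT15.1F6, made by deleting exon 1 of Smad3 with a Cas9 nickase in ESCs already homozygous for a mutant Smad2 allele. Both groups received the same medium, activin A included, and the replicates of a genotype were separate differentiations. Each genotype was thus 1 line, so that differences between the lines and effects of the knockout cannot be told apart.

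Germ cells use a set of genes that other cells keep off: RNA-binding proteins, the machinery that pairs and recombines chromosomes in meiosis, and the piRNA pathway, in which small RNAs bound by PIWI proteins silence transposons. Around implantation, the DNA methyltransferases Dnmt3a and Dnmt3b place methyl groups on cytosines of CpG dinucleotides, and promoters of many germline genes become methylated at that time and stay silent in somatic tissues. A Polycomb complex with E2f6, Mga, Max, Pcgf6 and L3mbtl2 also represses many of the same promoters in ESCs, and E2f6 and the Mga-Max pair bind short DNA motifs there.

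Whether these genes were silenced by methylation could not be tested, since methylation was not measured in these libraries. The mean of all 35 genes reached the detection limit of 10 normalized reads in WT and again in DKO, compared with 16265 of all 24288 symbols (67%) in either group, so the list is called germline and meiosis genes here. Normalized reads are reads counted over a whole gene body, introns included, divided by 1 size factor per library. They are not scaled for gene length and do not separate spliced from unspliced RNA. In bulk RNA, a few cells with much transcript and many cells with little cannot be told apart.

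Library totals ranged from 57644143 to 63046034 reads over 1 entry per gene. Smad3 measured 799, 846 and 873 normalized reads in the WT libraries and 21.5, 30.5 and 18.7 in the DKO libraries, which fits the genotype labels. Smad2 measured 4520 ± 86.3 in WT and 5062 ± 109 in DKO (SD, n = 3 each), but a count over the whole gene body does not test this allele. Summed markers of naive cells (6 genes, 4 of them called higher) ranged from 3216 to 3387 normalized reads in WT and from 4888 to 4988 in DKO. Summed trophoblast markers (5 genes, 4 called higher) ranged from 379 to 418 and from 827 to 915, although the defining marker Elf5 was at 0 in 4 of the 6 libraries and the call of Eomes was lost without DKO replicate 2 (log2 fold change 0.58) or WT replicate 1 (0.57). Summed markers of primitive endoderm ranged from 40.8 to 59.7 and from 70.4 to 87.1 (4 genes, 1 called higher), those of fibroblasts from 296 to 331 and from 214 to 250 (5 genes, 1 called lower), and those of EpiLCs from 102928 to 106638 and from 94730 to 95940 (5 genes, 2 called lower). Dnmt3b, with means of 70390 in WT and 65421 in DKO, made up most of the EpiLC sum, which hides larger changes of lower genes. The 2 EpiLC markers called lower were Fgf5 and Pou3f1. With 1 replicate left out at a time, their log2 fold changes ranged from -2.04 to -2.00 and from -0.65 to -0.59. The part of these shifts in the results that follow was not tested.

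Promoter sequences of 8 genes are printed because the results turn on them: Stk31, Fkbp6, Stag3 and Dazl rose in DKO cells from well-covered levels, Stra8 and Asz1 rose by the largest factors, Sycp1 fell the most, and Tex19.1 had the highest level per kilobase. Each sequence is the 250 bases before the start site in RefSeq (GRCm38.p6, the mm10 assembly), 5′ to 3′ on the strand of the gene. Capitals mark CpG dinucleotides, the sites that can carry methyl groups. For Stk31, Stag3, Stra8 and Fkbp6 the start site in that table lies inside the full RefSeq span of the gene. In the GENCODE annotation the entries counted for Stk31, Stag3 and Stra8 start downstream of that site, and the entry for Fkbp6 starts at it.
Stk31: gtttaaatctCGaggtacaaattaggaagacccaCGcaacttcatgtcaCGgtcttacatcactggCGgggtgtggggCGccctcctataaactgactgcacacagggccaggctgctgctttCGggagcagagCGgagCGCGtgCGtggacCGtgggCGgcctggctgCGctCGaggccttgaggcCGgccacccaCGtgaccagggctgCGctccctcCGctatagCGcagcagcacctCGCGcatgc
Fkbp6: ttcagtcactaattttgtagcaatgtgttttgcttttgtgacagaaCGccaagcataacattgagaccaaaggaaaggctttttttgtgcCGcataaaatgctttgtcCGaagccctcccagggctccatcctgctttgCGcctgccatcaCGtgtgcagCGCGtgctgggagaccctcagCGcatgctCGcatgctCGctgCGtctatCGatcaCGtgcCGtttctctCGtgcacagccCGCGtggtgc
Stag3: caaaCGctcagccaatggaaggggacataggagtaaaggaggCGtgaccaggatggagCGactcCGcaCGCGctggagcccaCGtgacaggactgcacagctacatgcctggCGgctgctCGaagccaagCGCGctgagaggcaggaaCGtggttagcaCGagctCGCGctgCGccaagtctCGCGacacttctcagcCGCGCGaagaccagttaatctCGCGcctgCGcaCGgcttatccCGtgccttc
Dazl: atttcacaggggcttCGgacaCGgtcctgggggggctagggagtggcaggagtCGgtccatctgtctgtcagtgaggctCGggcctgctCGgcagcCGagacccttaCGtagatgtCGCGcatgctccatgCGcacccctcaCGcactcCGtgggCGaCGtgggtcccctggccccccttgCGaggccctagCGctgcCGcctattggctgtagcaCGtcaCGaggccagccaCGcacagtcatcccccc
Stra8: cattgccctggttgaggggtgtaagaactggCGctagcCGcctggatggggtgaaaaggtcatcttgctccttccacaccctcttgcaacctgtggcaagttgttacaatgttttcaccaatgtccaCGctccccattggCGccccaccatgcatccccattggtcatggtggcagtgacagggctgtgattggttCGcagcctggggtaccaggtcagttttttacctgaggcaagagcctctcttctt
Asz1: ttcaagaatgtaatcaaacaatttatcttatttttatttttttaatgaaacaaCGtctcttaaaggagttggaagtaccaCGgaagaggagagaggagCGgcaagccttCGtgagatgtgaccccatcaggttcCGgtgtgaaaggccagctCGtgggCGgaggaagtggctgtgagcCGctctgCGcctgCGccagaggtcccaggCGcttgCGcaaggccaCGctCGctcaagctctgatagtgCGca
Sycp1: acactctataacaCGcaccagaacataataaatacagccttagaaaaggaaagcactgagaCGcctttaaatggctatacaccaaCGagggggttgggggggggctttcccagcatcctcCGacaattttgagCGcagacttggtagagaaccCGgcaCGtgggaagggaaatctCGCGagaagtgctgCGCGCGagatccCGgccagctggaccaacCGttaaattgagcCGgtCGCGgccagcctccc
Tex19.1: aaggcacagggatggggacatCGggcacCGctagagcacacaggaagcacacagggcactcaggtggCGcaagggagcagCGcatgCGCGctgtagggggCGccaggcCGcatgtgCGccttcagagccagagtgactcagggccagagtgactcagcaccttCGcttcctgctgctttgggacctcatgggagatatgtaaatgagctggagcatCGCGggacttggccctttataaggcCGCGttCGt
The regions are chr6:49395289-49395538 for Stk31 (plus strand), chr5:135350045-135350294 for Fkbp6 (minus strand), chr5:138280259-138280508 for Stag3 (plus strand), chr17:50293621-50293870 for Dazl (minus strand), chr6:34920698-34920947 for Stra8 (plus strand), chr6:18109062-18109311 for Asz1 (minus strand), chr3:102936101-102936350 for Sycp1 (minus strand) and chr11:121145893-121146142 for Tex19.1 (plus strand). CpG dinucleotides numbered 21 for Stk31, 17 for Fkbp6, 26 for Stag3, 20 for Dazl, 5 for Stra8, 15 for Asz1, 17 for Sycp1 and 15 for Tex19.1. Stra8, which rose by the largest factor, thus had the fewest of these 8.

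Levels of the 35 genes covered a wide range. Per kilobase of gene body, Tex19.1 was highest in WT cells with 3115 normalized reads per kb, a level at percentile 98.6 of all genes tested. Tex19.1 is active in pluripotent cells, placenta and germ cells, where it restrains retrotransposons. Rpl10l, a testis copy of the ribosomal protein gene Rpl10 that lacks introns, followed with 2422 per kb (percentile 98.1). A wide step separated both from Tuba3a at 139, Dazl at 95.6 and Hormad1 at 91.2 per kb. At the lower end stood Tdrkh at 2.07, Brdt at 1.40, Mei1 at 0.528 and Asz1 at 0.314 per kb. These values divide by the full RefSeq span of the gene, introns included, so genes with long introns come out lower than they would per kilobase of spliced RNA.

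Read depth decided how finely each gene was measured. The WT mean was at least 1000 normalized reads for 13 genes, between 100 and 1000 for 13 and under 100 for 9. The lowest value of any gene in any library was 14.0 normalized reads, or 26 reads, for Mei1 in DKO replicate 1. Replicates lay close together, and the 35 genes had a median coefficient of variation of 4.58% in WT and 4.19% in DKO.

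**Figure D1:**
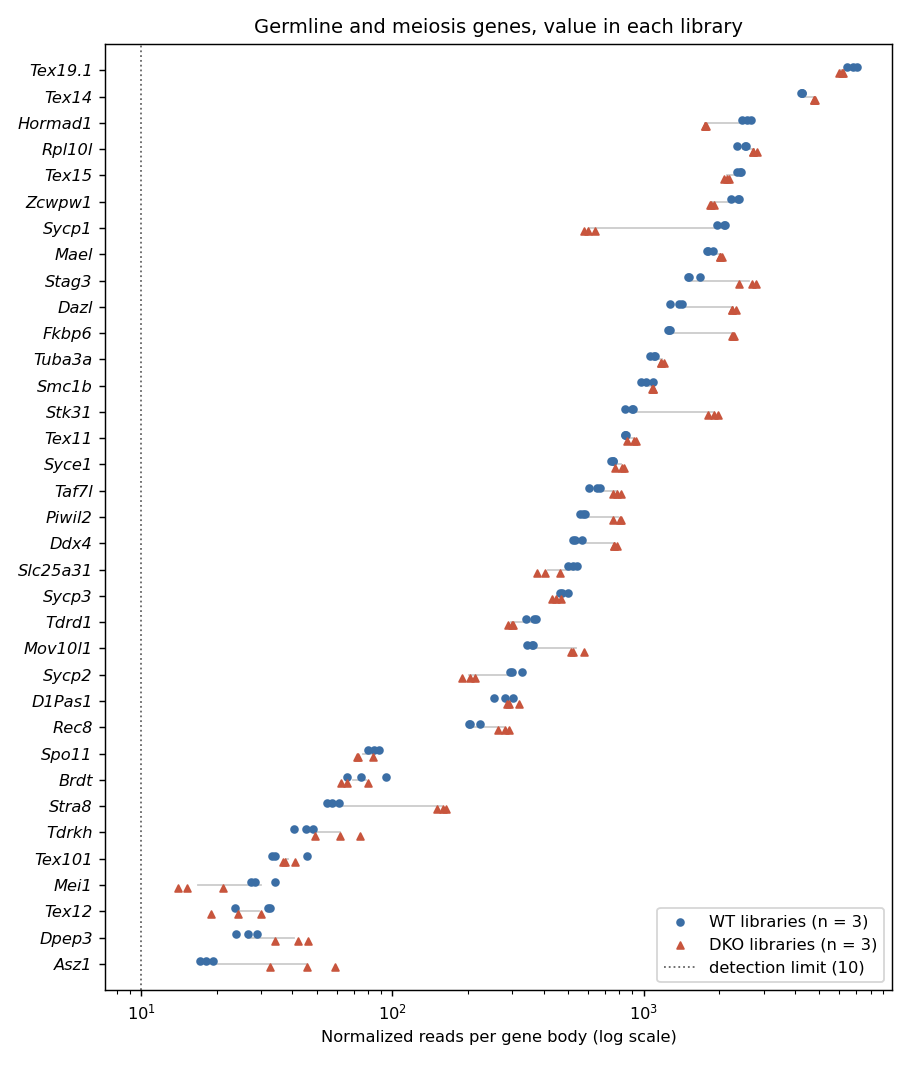
Normalized reads per gene body (log scale) of the 35 germline and meiosis genes in each of the 3 WT libraries (blue circles) and 3 DKO libraries (red triangles), sorted by WT mean, with a grey line between group means and a dotted line at the detection limit of 10. Values are not scaled for gene length, so genes are not to be ranked against each other; Sycp1, Stra8, Stk31 and Fkbp6 show gaps between genotypes far wider than the spread within them, while Brdt and Tex101 overlap.

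The question was whether these genes changed when Smad2 and Smad3 were missing as cells left the naive state. A gene was called changed when its adjusted p was under 0.05 (limma, Benjamini-Hochberg over all genes tested) and its fold change over 1.5. Of the 35 genes, 11 were called changed (31.4%), compared with 15.4% of all genes tested. Higher expression in DKO was called for 8 (22.9%, compared with 7.35% of all genes) and lower expression for 3 (8.57%, compared with 8.04%). The genes were chosen with earlier results of these data known, so these shares describe this list and do not test it. The genes that rose were Stra8, Asz1, Stk31, Fkbp6, Stag3, Dazl, Mov10l1 and Dpep3. The genes that fell were Sycp1, Mei1 and Sycp2. The median log2 fold change of the 35 genes was 0.11, beside 0.00 for all genes tested.

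The 24 genes not called had log2 fold changes from -0.55 to 0.51, all within the fold threshold. An adjusted p under 0.05, whatever the fold, was reached by 26 of the 35 genes (74.3%, compared with 53.4% of all genes), of which 17 were higher (26.9% of all genes) and 9 lower (26.5% of all genes). The 3 DKO values lay wholly above the 3 WT values for 19 genes (29.7% of all genes) and wholly below for 9 (29.3% of all genes). In all, groups did not overlap for 28 genes, compared with 59% of all genes. The 7 genes with overlapping groups were Tex12, Brdt, Spo11, Sycp3, Tex101, Smc1b and D1Pas1.

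**Figure D2:**
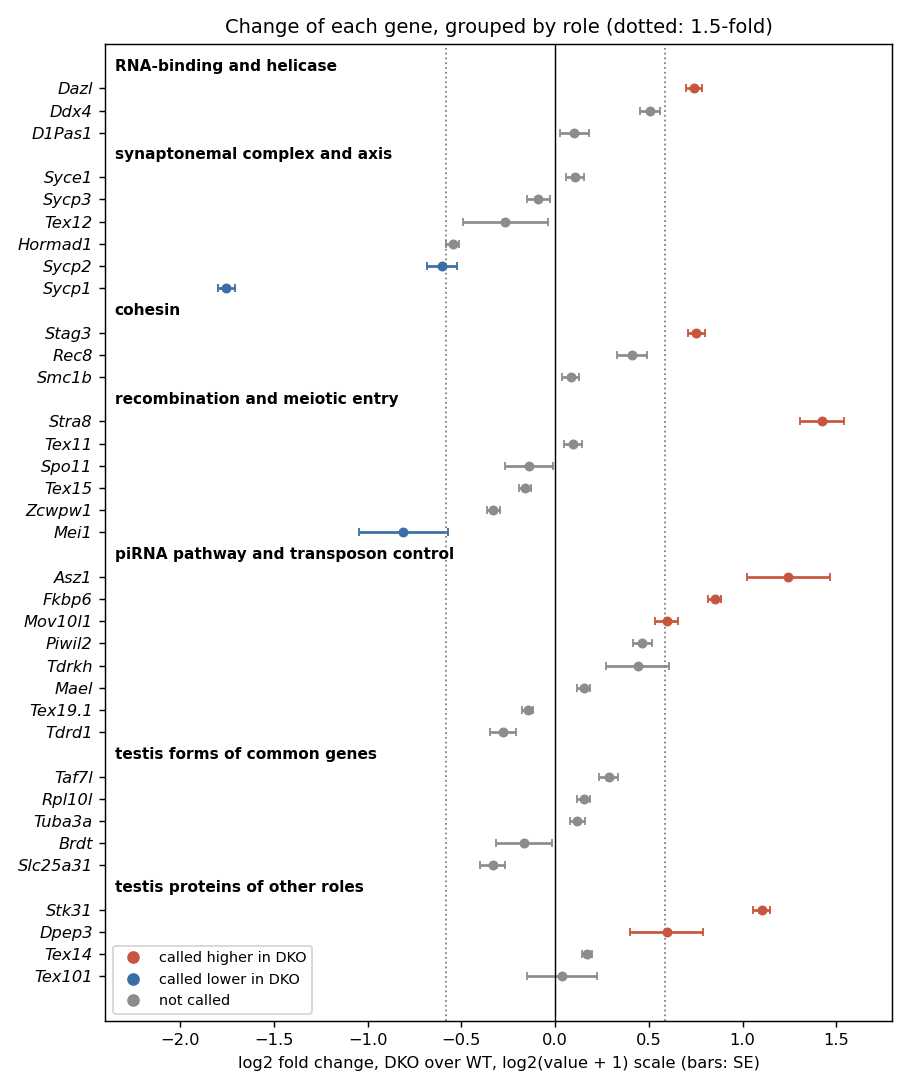
Log2 fold change of DKO over WT (x axis, on the log2(value + 1) scale, bars are standard errors) of the 35 genes, grouped by role, with red for genes called higher, blue for genes called lower, grey for genes not called and dotted lines at a 1.5-fold change. Values run from -1.76 for Sycp1 to 1.43 for Stra8, and most genes lie between the dotted lines.

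Counts by role rest on few genes each, and 7.35% of all genes tested were called higher and 8.04% lower. Among the 3 RNA-binding and helicase genes, 1 rose and none fell. Dazl, which encodes an RNA-binding protein that germ cells need to develop, measured 1269, 1384 and 1426 normalized reads in WT and 2333, 2238 and 2242 in DKO. All DKO libraries were well above all WT libraries, with means of 1360 ± 81.4 and 2271 ± 53.6 (SD, n = 3 each). The log2 fold change was 0.74 ± 0.04 (SE, limma, adjusted p = 2.04e-14). Ddx4, the Vasa helicase of germ cells, measured 569, 532 and 522 in WT and 785, 761 and 759 in DKO. Its groups did not overlap either, but its log2 fold change was 0.51 ± 0.05 (limma, adjusted p = 5.07e-09), or 1.42-fold, just under the threshold. D1Pas1, a testis copy of the X-linked helicase gene Ddx3x, had overlapping groups and a log2 fold change of 0.10 ± 0.08. Ddx3x itself measured 48206 ± 849 normalized reads in WT, and reads of the copy and its parent could be mixed, although no stretch of 75 bases in the D1Pas1 transcript was identical to another gene.

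Genes of the synaptonemal complex, the protein ladder that joins paired chromosomes in meiosis, had the lowest median of the 7 roles. Of 6 genes, 2 fell and none rose, and the median log2 fold change was -0.41. Sycp1, which encodes the cross-bars of the ladder, measured 2104, 2092 and 1956 normalized reads in WT and 600, 579 and 641 in DKO. Each DKO library held less than a WT library by a wide margin, and the means of 2051 ± 82.4 and 607 ± 31.2 (SD, n = 3 each) differed 3.38-fold. Its log2 fold change was -1.76 ± 0.05 (limma, adjusted p = 1.90e-21), the lowest of the 35 genes. The counted body of Sycp1 spans 117.6 kb and holds 3 annotated pseudogenes on the opposite strand, and whether counting used strand was not stated.

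Sycp2, which encodes a component of the chromosome axis, measured 328, 300 and 294 normalized reads in WT and 213, 189 and 203 in DKO. The groups were apart, and its log2 fold change was -0.61 ± 0.08 (limma, adjusted p = 3.66e-07), close to the threshold. Without DKO replicate 2 or without WT replicate 1 it was -0.56, and the call was lost. Hormad1, an axis protein that marks unpaired chromosomes, measured 2459, 2681 and 2575 in WT and 1768, 1760 and 1751 in DKO. It stood just outside the threshold, and its log2 fold change was -0.55 ± 0.04 (limma, adjusted p = 7.54e-13). Its shorter annotated form and the rest of its gene body gave DKO over WT ratios of 0.686 and 0.673. Exact stretches of 75 bases shared with a pseudogene, Gm15529, made up 15.2% of the Hormad1 transcript, so some of its reads could belong to either. Sycp3 (-0.09 ± 0.06), Syce1 (0.11 ± 0.05) and Tex12 (-0.27 ± 0.23), other parts of the ladder and its axis, did not reach an adjusted p of 0.05. Sycp3 overlaps Chpt1 and Tex12 overlaps Il18, each on the opposite strand.

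Cohesin rings hold sister chromatids together, and meiotic cells use their own subunits. Stag3, the meiotic form of the SA subunit, measured 1495, 1520 and 1669 normalized reads in WT and 2407, 2702 and 2800 in DKO. The lowest DKO library exceeded the highest WT library, and the log2 fold change was 0.75 ± 0.05 (limma, adjusted p = 2.57e-13). The full RefSeq span of Stag3 overlaps Gpc2, Gal3st4 and Gm43720 on the opposite strand. In GENCODE, however, the entry counted for Stag3 starts at 138280526, past the end of Gpc2. Gal3st4 was also called higher, with means of 14.6 and 23.4, and Gpc2 had means of 319 and 354. The part of these overlaps in the rise of Stag3 was not tested. Rec8, the meiotic kleisin, had means of 209 ± 11.6 and 278 ± 13.6 (SD, n = 3 each), so that its log2 fold change of 0.41 ± 0.08 was under the threshold. Smc1b, the meiotic form of Smc1, had overlapping groups and a log2 fold change of 0.08 ± 0.04.

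Genes of meiotic entry and recombination went both ways, with 1 of 6 higher and 1 lower. Stra8, the retinoic acid-induced factor with which germ cells enter meiosis, measured 54.8, 61.5 and 57.6 normalized reads in WT and 151, 159 and 163 in DKO. Its DKO values were all more than those of WT, by a mean factor of 2.72. Its log2 fold change was 1.43 ± 0.12 (limma, adjusted p = 8.93e-11), the largest rise of the 35. Mei1, needed for the DNA breaks that start recombination, measured 27.4, 34.1 and 28.3 in WT and 14.0, 15.2 and 21.3 in DKO. The groups were apart at low depth, and the log2 fold change was -0.81 ± 0.24 (limma, adjusted p = 0.00536). Spo11, the enzyme that makes those breaks, had means of 84.0 and 76.2 with overlapping groups. Zcwpw1, a reader of histone marks at recombination sites, stood at -0.33 ± 0.04, Tex15 at -0.16 ± 0.03 and the X-linked Tex11 at 0.10 ± 0.05 on the log2 scale, all under the fold threshold. The full RefSeq span of Zcwpw1 overlaps Pilra and the GENCODE form of Mepce on the opposite strand. By RefSeq positions Mepce ends 0.456 kb before Zcwpw1.

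In the piRNA pathway, 3 of 8 genes rose (7.35% of all genes) and none fell (8.04%), with a median log2 fold change of 0.45. All 8 had an adjusted p under 0.05 (53.4% of all genes) and groups that did not overlap (59% of all genes), 6 of them higher in DKO and 2 lower. Fkbp6, a partner of the chaperone Hsp90 in piRNA loading, measured 1256, 1255 and 1273 normalized reads in WT and 2296, 2278 and 2254 in DKO. The libraries of a genotype were nearly equal, and the log2 fold change was 0.85 ± 0.03 (limma, adjusted p = 4.12e-17). Reads within its shorter annotated form rose 1.81-fold and reads in the rest of the gene body 1.78-fold, so the rise was much the same over both stretches. Asz1, a protein of the mitochondrial surface where piRNAs are made, measured 17.2, 19.3 and 18.1 in WT and 59.2, 32.6 and 45.6 in DKO. Its DKO values were all higher but far apart, and the log2 fold change was 1.24 ± 0.22 (limma, adjusted p = 3.62e-05).

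Mov10l1, the RNA helicase that starts piRNA formation, measured 359, 344 and 361 normalized reads in WT and 579, 512 and 521 in DKO. The groups were apart, and its log2 fold change was 0.60 ± 0.06 (limma, adjusted p = 8.40e-09). This lay so near the threshold that leaving out DKO replicate 1 (0.54) or WT replicate 2 (0.57) ended the call. Piwil2, a PIWI protein that binds piRNAs, measured 585, 559 and 572 in WT and 802, 811 and 755 in DKO. It was 1.38-fold higher (log2 fold change 0.46 ± 0.05, limma, adjusted p = 1.64e-08) and not called. Tdrkh, a Tudor protein of the mitochondrial surface, measured 48.4, 40.4 and 45.3 in WT and 49.0, 62.0 and 74.1 in DKO. One DKO library was close to the WT range, and the log2 fold change was 0.44 ± 0.17 (limma, adjusted p = 0.0311). It was 0.59, and called, without DKO replicate 1. The full RefSeq span of Tdrkh overlaps Oaz3 on the opposite strand, but in GENCODE the entry counted for Tdrkh ends at 94431491, before Oaz3. Mael stood at 0.15 ± 0.04, Tdrd1 at -0.28 ± 0.07 and Tex19.1 at -0.15 ± 0.03 on the log2 scale. Tex19.1, the gene with the highest level per kilobase, measured 6448, 6806 and 7044 in WT and 6012, 6133 and 6190 in DKO, which is 1.11-fold lower with no overlap.

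None of the 5 testis forms of widely used genes was called (limma). An adjusted p under 0.05 was reached by 4 (53.4% of all genes), with 3 higher (26.9% of all genes) and 1 lower (26.5% of all genes). The germ-cell transcription factor subunit Taf7l stood at 0.29 ± 0.05, Rpl10l at 0.15 ± 0.03, the testis tubulin Tuba3a at 0.12 ± 0.04, the bromodomain protein Brdt at -0.17 ± 0.15 and the ADP/ATP carrier Slc25a31 at -0.33 ± 0.07 on the log2 scale. Tuba3a shared 19.9% of its 75-base stretches with Tuba3b, which had means of 303 and 294, so some of its reads could belong to either. Rpl10, the parent of Rpl10l, had means of 2607 and 2424.

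Of the 4 testis genes with other roles, 2 rose. Stk31, a Tudor-domain protein with a kinase-like part, measured 901, 909 and 844 normalized reads in WT and 1980, 1914 and 1806 in DKO. The groups were far apart, with means of 885 ± 35.4 and 1900 ± 87.8 (SD, n = 3 each), and the log2 fold change reached 1.10 ± 0.04 (limma, adjusted p = 1.46e-17). Stk31 overlaps the pseudogene Gm17060 on the opposite strand. Dpep3, a membrane dipeptidase of the testis, measured 29.0, 23.9 and 26.7 in WT and 42.0, 34.1 and 46.1 in DKO. Dpep3 overlaps Gm45752, a noncoding RNA gene on the opposite strand. Its groups were apart at low depth, and its log2 fold change was 0.59 ± 0.20 (limma, adjusted p = 0.013). This call was the least firm of the 11, since it was lost without DKO replicate 1 (0.57), DKO replicate 3 (0.50) or WT replicate 2 (0.52), and with a pseudocount of 4 (0.55). Tex14, needed for the bridges between germ cells, stood at 0.17 ± 0.03 with means of 4257 and 4789, and small nuclear and nucleolar RNA genes lie within its counted body. Its shorter annotated form and the rest of its gene body had DKO over WT ratios of 1.15 and 0.885 (means of 464 and 411 in the rest), on opposite sides of 1 and not tested. Tex101, a sperm surface protein, had overlapping groups.

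The 35 genes were spread over 17 chromosomes. Of the 4 on chromosome 6, 3 rose, compared with 68 of 798 tested genes on this chromosome (8.52%), namely Asz1 (18050964 to 18109061), Stra8 (34920163 to 34939344) and Stk31 (49395506 to 49469506), which lie far apart. The nearest tested protein-coding genes on either side of the 11 called genes gave 1 called gene of 22 (4.55%, compared with 15.4% of all genes). That gene was Panx2 next to Mov10l1, with means of 60.4 in WT and 38.2 in DKO, a change opposite to that of Mov10l1. Around all 35 genes, 10 of 70 neighbours were called (14.3%). Gal3st4, which overlaps the full span of Stag3 and was called higher, was not among these neighbours. Some neighbours were distant, such as Mpp6 at 641 kb from Stk31.

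Promoter windows of 300 bases (250 before and 50 after the start) were found in RefSeq for 31 of the 35 genes, without Tex11, Tex15, Piwil2 and Spo11. CpG dinucleotides per window ranged from 8 to 38 with a median of 20, compared with 19 for 12376 tested genes and 7 for all 27025 promoters. The fewest were in the window of Mei1 (upstream part chr15:82082226-82082475), which lies well inside the gene body counted for Mei1 (start 82070074, plus strand). The median G+C share was 60%, beside 60.3% for tested genes. A window rich in CpG, with an observed over expected ratio of at least 0.75 and a G+C share of at least 55%, was found for 11 of 31 genes (35.5%), compared with 41.5% of tested genes. By CpG content the promoters of these genes thus lay near those of expressed genes in general.

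Motifs searched on both strands were TCCCGC (as in E2f sites), CACGTG (the E-box that Mga-Max can bind) and GGGCGG (as in Sp1 sites). TCCCGC and GGGCGG can share bases when they lie on opposite strands. CACGTG was present in 14 of 31 windows (45.2%), compared with 9.88% of tested genes and 7.24% of all promoters. TCCCGC was present in 15 (48.4%), compared with 34% and 20.0%, and GGGCGG in 15 (48.4%), compared with 61.2% and 35.9%. Among the sequences printed above, the E-box reads as caCGtg in Stk31, Fkbp6, Stag3 and Sycp1, and Dazl, Stra8, Asz1 and Tex19.1 have none. The E-box was thus present both in genes that rose and in the gene that fell the most. Of the 8 genes that rose, 4 had an E-box and 1 had TCCCGC. Of the 20 genes not called, 9 had an E-box and 13 had TCCCGC, and of the 3 that fell, 1 had each. A match is a run of letters and does not show that a factor was bound.

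**Figure D3:**
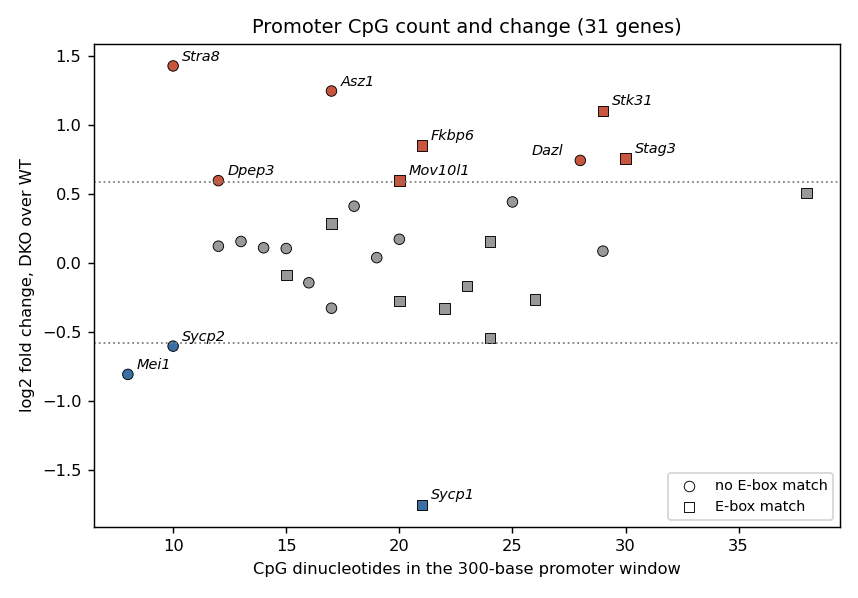
Number of CpG dinucleotides in the 300-base promoter window (x axis) and log2 fold change of DKO over WT (y axis) for the 31 genes with a promoter entry, as squares where the window holds CACGTG and circles where it does not, coloured red for genes called higher, blue for called lower and grey for not called, with dotted lines at a 1.5-fold change. Genes that rose are spread from 10 CpG (Stra8) to 30 (Stag3), and Sycp1 with 21 fell.

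Other genes of the same pathways were examined for context, from lists chosen with results of these data known. The lists are short, and 7.35% of all genes tested were called higher and 8.04% lower. Of 19 further meiosis genes tested, 3 rose and none fell, with a median log2 fold change of -0.15. These were Spata22 (1.18 ± 0.22, from 15.3 to 36.0 normalized reads) and Meiob (0.90 ± 0.28, from 11.3 to 21.6), which act together on recombining DNA, and Sohlh2 (0.64 ± 0.04, from 1028 to 1603), a germ-cell transcription factor. Of 14 further piRNA genes tested, 1 rose and 3 fell, with a median of -0.03. Tdrd9 rose by 0.98 ± 0.12, while Piwil1 (-1.08 ± 0.14), Tdrd6 (-1.02 ± 0.32) and Tdrd5 (-0.88 ± 0.07) fell. Asz1, Fkbp6 and Mov10l1 thus rose while other genes of the pathway fell.

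**Figure D4:**
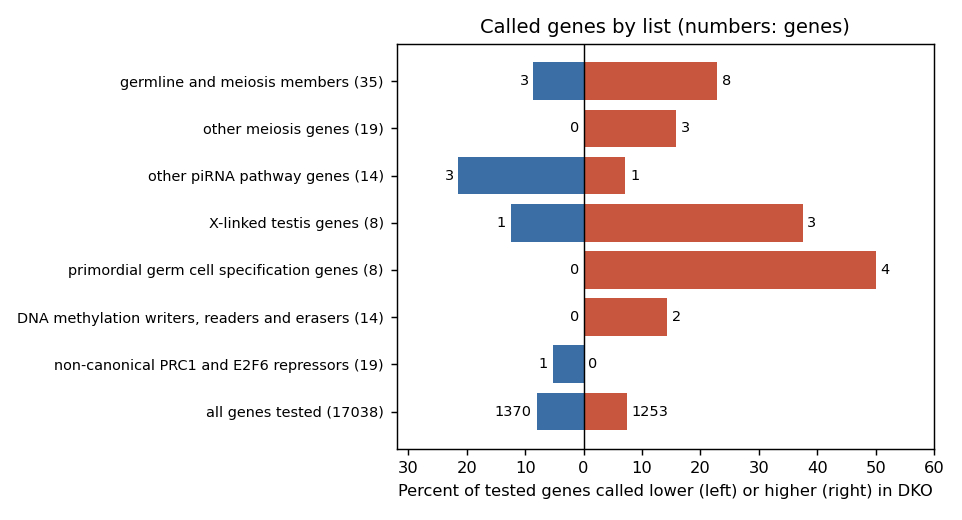
Percent of tested genes called lower (blue, left) or higher (red, right) in DKO for each gene list, with the number tested in brackets and the number called beside each bar. Among the 35 germline and meiosis genes 8 rose and 3 fell, and the bottom bar gives all 17038 genes tested.

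Among 14 genes that write, read or erase DNA methylation, 2 rose (7.35% of all genes) and none fell (8.04%). Dnmt3l, a cofactor of the methyltransferases, rose from 14331 ± 253 to 23260 ± 424 normalized reads (SD, n = 3 each, log2 fold change 0.70 ± 0.02, limma, adjusted p = 3.74e-19), and Tet2, which oxidizes methylated cytosine, rose from 840 to 1310. Dnmt1 (0.09 ± 0.03), Dnmt3a (-0.24 ± 0.02), Dnmt3b (-0.11 ± 0.02) and Uhrf1 (0.10 ± 0.02) stayed under the fold threshold on the log2 scale. Among 19 genes of the E2f6 and Mga repressor complex and its partners, none rose and 1 fell. That gene was Yaf2 (-0.76 ± 0.06), an accessory subunit, while E2f6 (-0.14 ± 0.03), Mga (0.04 ± 0.02), Max (0.11 ± 0.03), Pcgf6 (-0.12 ± 0.03) and L3mbtl2 (-0.03 ± 0.03) were not called. Whether any of these changes bears on the 11 called germline and meiosis genes was not tested.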

How the data were processed

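The authors removed ribosomal reads with bowtie2, aligned the rest to mm10 with STAR, removed duplicates with Samtools and counted reads over refGene gene bodies. Versions and the use of strand were not given in the sources used here. The values the authors deposited are a signal, namely reads of an entry scaled by the size factor of its library. The authors' comparison table (fold changes, Wald scores, p-values) was not used. Dividing by the smallest step gave whole reads for 100% of values (within 0.01 reads). Rows without a symbol (138, 0.517% of reads) were left out.

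One entry per symbol was tested with limma (3.58.1, under R 4.3.3) and a variance trend after transformation to log2(value + 1), after the filter filterByExpr on recovered reads, with adjustment over 17038 genes. Fold changes of low genes are understated on this scale. Count tests on recovered reads were alternatives and called 2638 genes (edgeR 4.0.16) and 2475 (DESeq2 1.42.0). In simulated data of 17038 genes with 200 changed 2-fold or 3-fold, limma recovered 95.0%, and 1.55% of its calls were false. Changes near 1.5-fold were not simulated. P-values measure the spread between differentiations of 1 line per genotype, and no batch is labelled. Differences between replicates had 3.44 to 5.64 times the variance of sampling alone, so no library was a copy of another. All 35 genes could be named, as could genes called in the other lists, main methylation and repressor genes, and Smad2 and Smad3. Panx2, Gpc2, Gal3st4, copies of listed genes and other uncalled genes of the lists were named after their values were seen. The genes and lists were chosen with earlier results of these data known. Positions and promoters came from RefSeq (GRCm38.p6) and overlaps from GENCODE. Overlaps and levels per kilobase used the full RefSeq span of a gene, which can be longer than the entry counted.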

Additional observations from a re-analysis of the deposited data

How the results depend on the processing

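The fold threshold moved the counts most. Without it, 9098 genes were called (4591 higher, 4507 lower), with 17 of the 35 germline and meiosis genes higher and 9 lower. At a fold change over 2, 1155 were called (557 higher, 598 lower), with 3 of the 35 higher and 1 lower. Leaving out 1 replicate at a time gave 2529 to 2610 genes, with 1174 to 1262 higher and 1283 to 1373 lower, and 6 to 8 of the 35 higher and 2 to 3 lower. Across 16 alternatives (tool, size factors, filter, pseudocount, block and replicates), 31 of the 35 genes kept their side of the threshold. The exceptions were Sycp2, Dpep3, Mov10l1 and Tdrkh, and no called gene among the 35 changed direction. Tex101, not called, ranged from -0.04 to 0.18 on the log2 scale and was below 0 without DKO replicate 2, WT replicate 1 or WT replicate 3. All 35 were detected in at least 1 group at limits of 5 and 20 normalized reads, over all rows of a symbol, with TMM factors and without each replicate. At a limit of 20, the means of Asz1 in WT (18.2) and Mei1 in DKO (16.8) lay below it. Testing every named entry rather than 1 per gene called 3904 entries.

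Replicate numbers are shared between the genotypes, but deviations of same-numbered libraries were uncorrelated (0.00881, -0.0293 and 0.0365 over 11930 genes), so the numbers were not taken as pairs. A fit with the replicate number as a block called 2602 genes, with 8 of the 35 higher and 3 lower. Depth limits Asz1, Mei1 and Dpep3, with means under 50 normalized reads.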

Other observations

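Genes of later germ cells were mostly near 0. Of 12 genes of gamete differentiation, 3 had enough reads to be tested, and the sperm genes Prm1, Tnp1 and Acrv1 had no reads in any library. Zp3, a protein of the egg coat, rose from 73.1, 97.3 and 89.1 normalized reads in the WT libraries to 327, 305 and 324 in the DKO libraries (log2 fold change 1.88 ± 0.10, limma, adjusted p = 1.98e-14). The other 2 tested egg genes were called lower but had few reads, with WT and DKO means of 16.0 and 7.39 for Nobox and 6.92 and 2.44 for Zp2. Leaving out 1 replicate at a time ended the call of Nobox in 2 of 6 fits and that of Zp2 in 3 of 6.

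Of 8 X-linked testis genes tested, 3 rose and 1 fell, compared with 7.35% and 8.04% of all genes tested. Rhox13, a homeobox gene, measured 97.8, 128 and 89.1 in WT and 196, 189 and 199 in DKO (0.90 ± 0.11 on the log2 scale). Tex16 fell by 0.91 on the log2 scale, with means of 30.5 and 16.0, and Fthl17a and Mageb4 had group means under 32 normalized reads. Without DKO replicate 1 the calls of Fthl17a (0.62) and Mageb4 (0.66) were lost. That of Fthl17a was also lost without WT replicate 2 (0.51), and that of Mageb4 without DKO replicate 2 (0.89), WT replicate 1 (0.86) or WT replicate 3 (0.56). Of 8 genes of primordial germ cell specification, 4 rose: Tfap2c (2.50 ± 0.10), Prdm14 (2.31 ± 0.21), Dppa3 (2.09 ± 0.08) and Kit (1.55 ± 0.05). The rest of the same list had lower DKO means and was not called: Prdm1 (-0.21 ± 0.10), Nanos3 (-0.25 ± 0.24), Ifitm3 (-0.19 ± 0.05) and Dnd1 (-0.15 ± 0.06). The authors listed Tfap2c as a marker of extra-embryonic ectoderm.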
